A study of Homo sapiens with 4 samples.

Results

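The transcripts of 10 enzymes and helper proteins of eicosanoid synthesis were followed in THP1 cells, a human monoblastic AML cell line that carries MLL-AF9. The genes were ALOX5, ALOX5AP, ALOX12, ALOX15, LTA4H and LTC4S of the lipoxygenase branch and PTGS1, PTGS2, TBXAS1 and PTGES of the cyclooxygenase branch. Every non-control probe annotated with one of these gene symbols was taken, which gave 13 of the 34127 probes on the array, that is, 10 of the 27193 names its annotation gives to genes or transcripts. The cells received 30 nM of a miRNA mimic, either hsa-miR-511-5p or negative control #1. A mimic is a synthetic RNA that supplies a mature miRNA, and the control mimic served as the reference treatment. After transfection the cells stayed in low-serum medium (0.5% FCS with 1 g/L BSA), and RNA was harvested on day 2. Of 2 independent experiments, each gave 1 array per mimic, so that 4 single-dye Agilent arrays were compared, 2 per treatment. All cells are of 1 line, and no untransfected cells were analysed here.

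Eicosanoids are signalling lipids made from arachidonic acid, which phospholipases release from membranes. In the lipoxygenase branch ALOX5, helped by the membrane protein ALOX5AP, makes leukotriene A4. LTA4H turns this intermediate into the neutrophil attractant leukotriene B4, and LTC4S couples it to glutathione to give the cysteinyl leukotrienes. ALOX12 and ALOX15 make hydroxylated fatty acids instead. In the cyclooxygenase branch PTGS1, the largely constitutive cyclooxygenase, and PTGS2, the inducible one, make prostaglandin H2. TBXAS1 converts it to thromboxane A2, and PTGES converts it to prostaglandin E2. Monocytes and macrophages are known producers of leukotrienes, thromboxane and prostaglandin E2.

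Each result below is that of a probe, which reads 1 stretch of a transcript, and the sequences of a few probes are shown. The miR-511-5p sequence is that of RefSeq (GRCh38.p14, chr10:17845122-17845142, plus strand), with the seed, bases 2 to 8, in capitals. The probes are 60 bases long and their sequences and hg19 positions are those of the array files. Both ALOX15 probes are shown since they differed in opposite directions, both LTA4H probes since they differed little, and the LTC4S probe since it varied most between the arrays. The LTC4S probe covers 290 bases of the genome, so its target crosses an intron, and so does that of the TBXAS1 probe (chr7:139706924-139715523, plus strand), which covers 8600 bases. Of a pair of probes, the one that starts nearer to the 5′ end of the transcript is called upstream and the other downstream.
hsa-miR-511-5p: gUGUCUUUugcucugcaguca
ALOX15 upstream probe (chr17:4539055-4539114, minus strand, from base 1114 of the transcript): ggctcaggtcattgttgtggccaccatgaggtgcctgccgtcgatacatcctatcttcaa
ALOX15 downstream probe (chr17:4534930-4534989, minus strand, from base 1908 of the transcript): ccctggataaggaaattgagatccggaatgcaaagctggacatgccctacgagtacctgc
LTA4H upstream probe (chr12:96415926-96415985, minus strand, from base 592 of the transcript): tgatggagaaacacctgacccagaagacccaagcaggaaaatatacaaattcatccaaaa
LTA4H downstream probe (chr12:96394767-96394826, minus strand, from base 1844 of the transcript): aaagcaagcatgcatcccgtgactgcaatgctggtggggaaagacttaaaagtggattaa
LTC4S probe (chr5:179222983-179223272, plus strand, from base 366 of the transcript): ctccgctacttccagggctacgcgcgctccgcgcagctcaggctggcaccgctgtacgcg

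The sequence AAAGACA, the perfect complement of the seed, was searched on the strand of the transcript in all probes. It lay in 331 of 34127 probes (0.97%) and in 0 of the 13 probes of these genes. This describes only the 60 bases of each probe, and the rest of the transcripts was not searched.

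Per array, between 64.8% and 69.3% of all probes were well above background by the call of the scanner software, and no spot of the array was saturated. The arrays lay on 1 slide. Of 10 monocyte and myeloid markers, 8 had probes, and all 8 were well above background on all 4 arrays. Of 4 epithelial markers, EPCAM and CDH1 were well above background on none, while KRT18 and a KRT8 probe were on all 4 arrays. Another KRT8 probe was on none. Of 5 markers of eosinophils, basophils and mast cells, PRG2 and MS4A2 were well above background on all 4 arrays, and CLC and TPSAB1 on none. On all 4 arrays were also 2 of 3 B cell, 3 of 4 platelet and megakaryocyte, 2 of 3 erythroid and 1 of 3 T cell markers. A gene was counted if any of its probes was. Levels below are log2 intensities after quantile normalization, and differences are miR-511 mimic minus control mimic on the same scale. The brightness of a probe depends on its sequence, so levels were compared between arrays and not between probes.

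Transcripts of 8 of the 10 genes were detected by the call well above background. Of the 13 probes, 10 were well above background on all 4 arrays and 2 on none. The 2 on none were those of ALOX12, the platelet-type lipoxygenase (chr17:6913910-6913969, plus strand), and of PTGES, the inducible prostaglandin E synthase (chr9:132501510-132501569, minus strand). ALOX12 carried a surrogate value, which the software sets for spots at background, on every array. PTGES carried one on both arrays of experiment 2. In experiment 1 its spot was positive and significant by another call of the software, though not well above background. The intensities there were 4.63 units with miR-511 mimic and 4.45 units with control mimic. These 2 probes were not tested, and no difference between the mimics is given for them. The remaining probe, the downstream one of ALOX15, was well above background with control mimic only. In total 11 of the 13 probes entered the test.

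**Figure D1:**
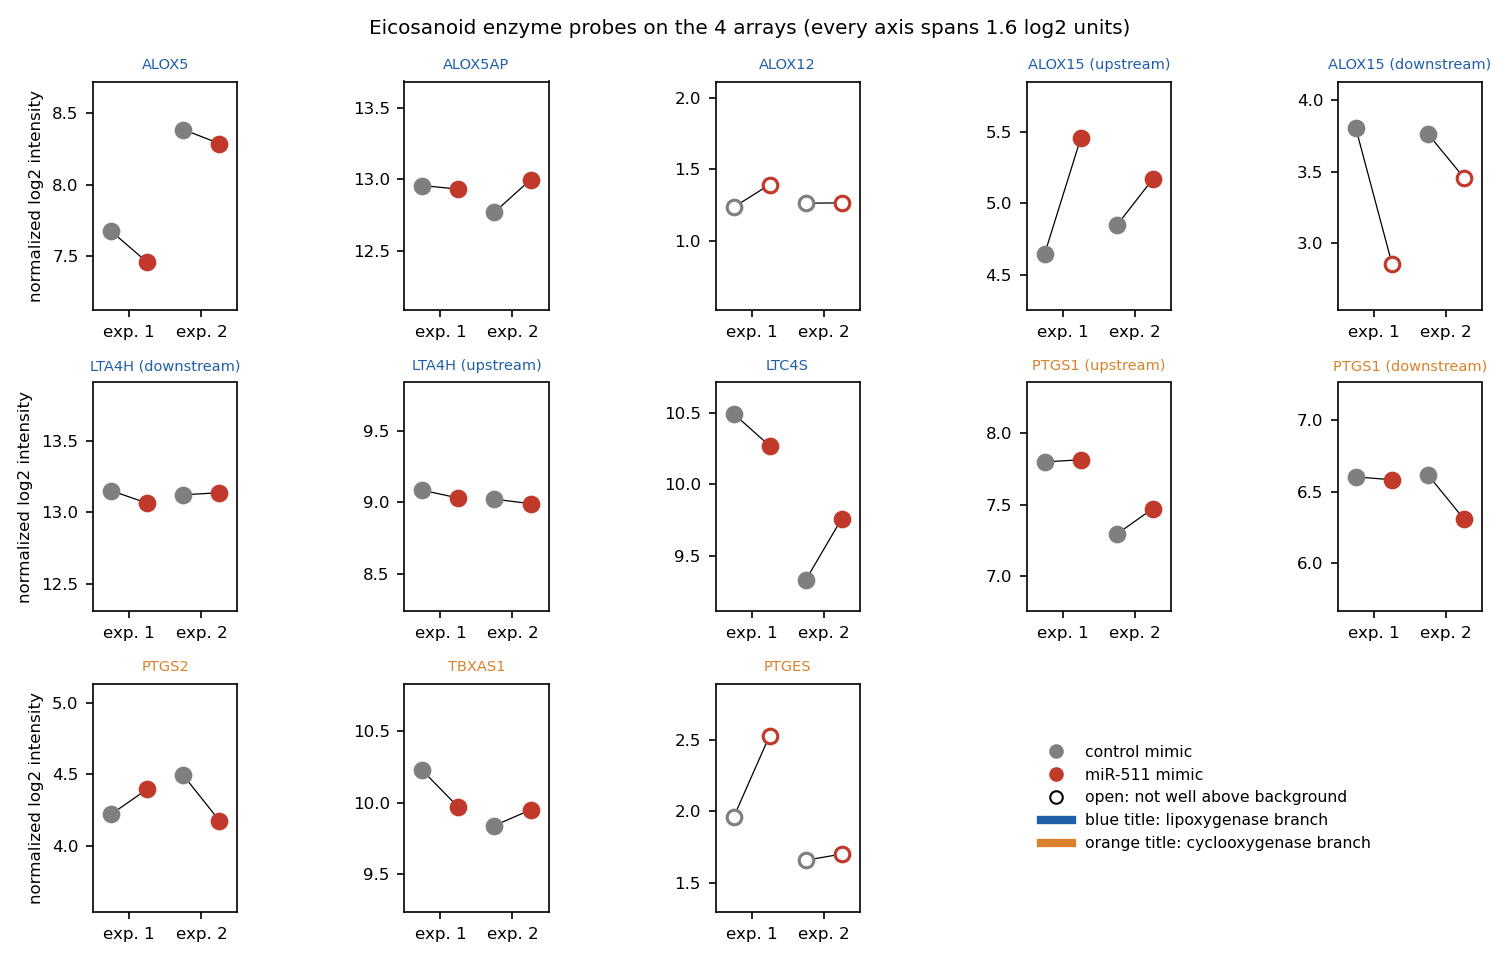
Normalized log2 intensity of the 13 probes of eicosanoid enzymes on each of the 4 arrays, 1 point per array, with lines joining the control mimic (grey) and miR-511 mimic (red) of an experiment. The points of ALOX5 lie higher in experiment 2 and those of LTC4S lower, and the ALOX15 probes move in opposite directions between the mimics.

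No eicosanoid enzyme differed between the mimics after adjustment. Of the 10 genes, ALOX15 alone passed the unadjusted threshold, with its probes in opposite directions. By limma with an unadjusted p below 0.05, 2 of the 11 tested probes were called. Over all 22638 tested probes 498 were called, which is 2.20%. One ALOX15 probe was higher with miR-511 mimic, against 287 of all tested probes (1.27%), and the other was lower, against 211 (0.932%). After Benjamini-Hochberg adjustment of limma's p-values, 0 of the 11 probes and 0% of all tested probes passed. An equal-variance comparison of each averaged probe, without limma's moderation, called 0 of the 11 probes at the same unadjusted threshold and 708 of all tested probes, and none of either after adjustment. An exact permutation of 2 against 2 arrays cannot give a p below 0.333. In such bulk RNA, fewer cells that express a gene and less of its RNA per cell cannot be told apart.

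ALOX15, the lipoxygenase that alternatively activated monocytes are known to induce, was the only one of the 10 genes past the unadjusted threshold. Its upstream probe had a log2 level of 5.46 with miR-511 mimic and 4.65 with control mimic in experiment 1. In experiment 2 the levels were 5.17 and 4.85. Both miR-511 arrays were thus above both control arrays, and all 4 were well above background. The difference was 0.57 (SE 0.15, 95% interval 0.16 to 0.97, n = 2 arrays per mimic, limma adjusted p = 1.00), with 0.81 in experiment 1 and 0.32 in experiment 2. The spots were dim, with background-subtracted intensities of 38.0 and 27.4 units in experiment 1 and of 39.1 and 28.5 units in experiment 2.

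The downstream ALOX15 probe gave the opposite picture. Its log2 level was 2.86 with miR-511 mimic and 3.80 with control mimic in experiment 1, and 3.46 and 3.77 in experiment 2. Both miR-511 arrays were below both control arrays, and neither was well above background. The fitted difference was -0.63 (SE 0.23, 95% interval -1.25 to -0.0051, n = 2 arrays per mimic, limma adjusted p = 1.00), just past the unadjusted threshold. When the miR-511 arrays were set to a floor, the probe was 1.26-fold lower with miR-511 mimic. This is not a least effect, since the 95% interval of the fitted difference ends close to 0. The ratio compares the average control level with an average floor for the miR-511 arrays. On each of those the floor was the lowest level that counted as well above background, or the level of the probe where that was higher. The latter held in experiment 2, at 3.46 against 3.33. The background-subtracted intensities were 5.90 and 15.8 units in experiment 1 and 12.0 and 13.2 units in experiment 2, again miR-511 mimic first. In both probes the difference was larger in experiment 1 than in experiment 2.

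Neither ALOX15 call held under every setting. With the experiment number as a block, which pairs the arrays of an experiment, the upstream probe stayed past the threshold and the downstream probe did not. With normexp background correction, the differences shrank to 0.16 and -0.069 and neither passed. Without the miR-511 array of experiment 1 the upstream probe differed by 0.42, and without the control array of experiment 1 by 0.47, and in neither fit did it pass. It stayed past the threshold without either array of experiment 2. The downstream probe differed by -0.33 without the miR-511 array of experiment 1, by -0.61 without the control array of experiment 1 and by -0.64 without the control array of experiment 2, none past the threshold. It passed without the miR-511 array of experiment 2, at -0.93.

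**Figure D2:**
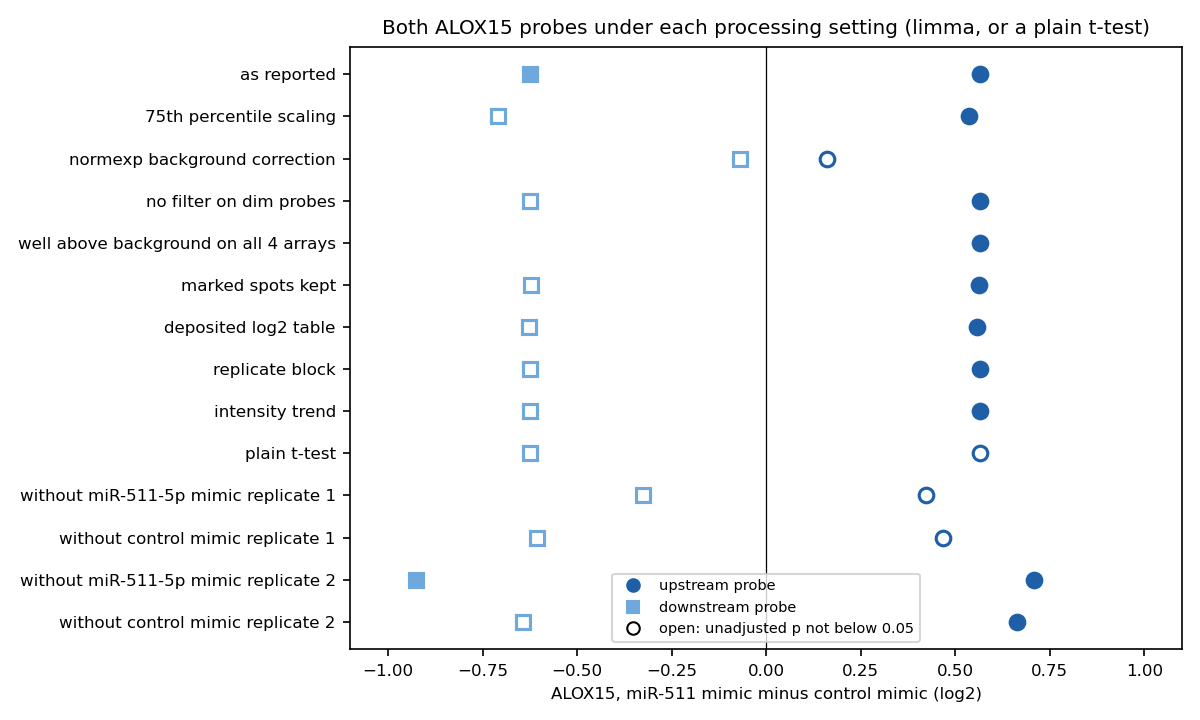
Log2 level with miR-511 mimic minus that with control mimic for the 2 ALOX15 probes ( horizontal axis) under each processing setting (rows), with filled symbols for an unadjusted p below 0.05. The upstream probe lies above 0 and the downstream probe below 0 in each row that holds them, closest to 0 with normexp background correction (0.16 and -0.069). The downstream probe has no value in the setting that asks for a signal well above background on all 4 arrays.

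The enzymes that make leukotriene A4 and its products were expressed under both mimics and passed no threshold between them. ALOX5 (chr10:45941417-45941476, plus strand) had log2 levels of 7.46 with miR-511 mimic and 7.68 with control mimic in experiment 1 and of 8.29 and 8.39 in experiment 2. The miR-511 array was the lower one of each experiment, but the experiments lay further apart than the mimics. The difference was -0.16 (SE 0.39, 95% interval -1.22 to 0.91), with -0.22 in experiment 1 and -0.098 in experiment 2. This fit has no term for the experiment, so its SE also holds the difference between the experiments. With the experiment as a block, limma's unadjusted p was 0.160, against 0.706 without it. It was 0.650 against 0.830 for LTC4S and 0.366 against 0.696 for the upstream PTGS1 probe, both described below. The ALOX5 probe was printed 10 times, and the SD over its 10 spots on an array was between 0.048 and 0.096.

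ALOX5AP, which presents arachidonic acid to ALOX5 (chr13:31338155-31338214, plus strand), had log2 levels of 12.93 and 12.95 in experiment 1 and 13.00 and 12.77 in experiment 2, miR-511 mimic first. Its 4 arrays overlapped between the mimics. The difference was 0.10 (SE 0.11, 95% interval -0.21 to 0.41).

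LTA4H varied least. Its downstream probe had log2 levels of 13.06 and 13.15 in experiment 1 and 13.14 and 13.12 in experiment 2, miR-511 mimic first. Its upstream probe had 9.03 and 9.09 in experiment 1 and 8.99 and 9.02 in experiment 2. Both probes spanned less than 0.1 over the 4 arrays, and the mimics overlapped in both. The differences were -0.036 (SE 0.092, 95% interval -0.29 to 0.22) for the downstream and -0.043 (SE 0.092, 95% interval -0.29 to 0.21) for the upstream probe.

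LTC4S, the cysteinyl leukotriene enzyme, varied most among the probes well above background on all 4 arrays. Its log2 levels were 10.27 and 10.49 in experiment 1 and 9.76 and 9.33 in experiment 2, miR-511 mimic first. Both arrays of experiment 2 were below both arrays of experiment 1. The miR-511 array was the lower one in experiment 1 and the higher one in experiment 2, by -0.22 and 0.43. The fitted difference was therefore 0.10 with an SE of 0.45 and a 95% interval from -1.13 to 1.34, which leaves a change of either sign within the error.

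In the cyclooxygenase branch 0 of the 4 tested probes passed the unadjusted threshold. PTGS1 was read by an upstream probe (chr9:125155052-125155111, plus strand) and a downstream probe (chr9:125157536-125157595, plus strand). The upstream probe had log2 levels of 7.81 and 7.80 in experiment 1 and 7.47 and 7.30 in experiment 2, miR-511 mimic first. The downstream probe had 6.58 and 6.60 in experiment 1 and 6.31 and 6.62 in experiment 2. Both miR-511 arrays lay below both control arrays in the downstream probe, by a margin of 0.020 in experiment 1 and 0.31 in experiment 2, and the mimics overlapped in the upstream probe. The differences were 0.096 (SE 0.23, 95% interval -0.53 to 0.72) for the upstream and -0.16 (SE 0.13, 95% interval -0.52 to 0.19) for the downstream probe.

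PTGS2, the inducible cyclooxygenase (chr1:186641469-186641528, minus strand), was dim but well above background on all 4 arrays. Of its 10 spots, 9 were well above background on the miR-511 array of experiment 1 and 10 on each other array. Its log2 levels were 4.40 and 4.22 in experiment 1 and 4.18 and 4.49 in experiment 2, miR-511 mimic first, so the order of the mimics turned between the experiments. The difference was -0.071 (SE 0.15, 95% interval -0.48 to 0.34). Within the experiments the mimics differed by 0.17 and -0.32. The SD over the 10 single spots of an array, which is technical and not the error of their mean, was 0.22 to 0.29.

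**Figure D3:**
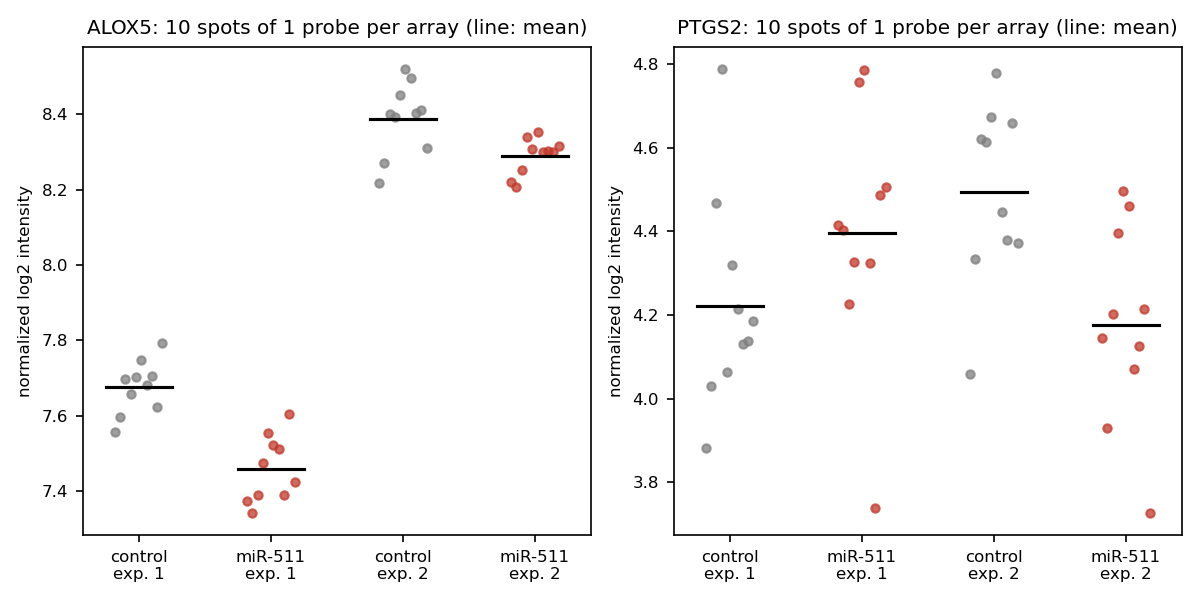
Normalized log2 intensity of the 10 spots of the ALOX5 probe (left) and the PTGS2 probe (right) on each array, 1 point per spot, with a line at their mean. The ALOX5 spots of the experiments do not overlap (SD over spots 0.048 to 0.096), whereas the PTGS2 spots of all 4 arrays do (SD over spots 0.22 to 0.29).

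TBXAS1, thromboxane synthase, had log2 levels of 9.97 and 10.23 in experiment 1 and 9.95 and 9.84 in experiment 2, miR-511 mimic first. The miR-511 arrays were nearly equal and lay between the control arrays. The difference was -0.074 (SE 0.16, 95% interval -0.51 to 0.36).

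The medians of the branches lay close together. The median difference was -0.036 over the 7 tested probes of the lipoxygenase branch and -0.073 over the 4 of the cyclooxygenase branch, against 0.0098 over all tested probes. In experiment 1 the medians were -0.087 and -0.0027, and in experiment 2 they were 0.015 and -0.10, so that their order turned. Without the miR-511 array of experiment 2 the cyclooxygenase median was 0.0060, and without the control array of experiment 2 it was -0.16. The same direction in both experiments was seen for 6 of the 11 tested probes (54.5%), against 51.0% of all tested probes. The median absolute difference was 0.10 for the 11 probes and 0.079 for all tested probes. No test between the branches was made.

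**Figure D4:**
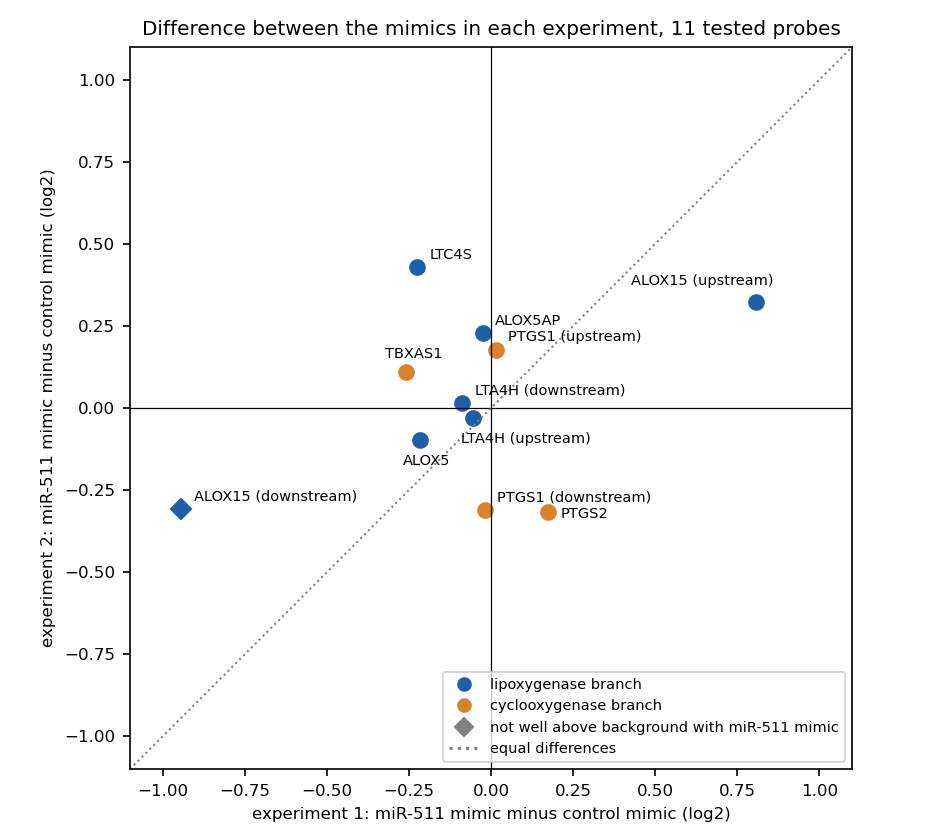
Log2 level with miR-511 mimic minus that with control mimic in experiment 1 (horizontal axis) and experiment 2 (vertical axis) for the 11 tested probes, 1 point per probe, coloured by branch. The ALOX15 probes lie furthest out, at 0.81 and 0.32 and at -0.94 and -0.31. LTC4S, TBXAS1, PTGS2, ALOX5AP and the downstream LTA4H probe have opposite signs in the experiments.

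Between the experiments ALOX5 was higher, and LTC4S and the upstream PTGS1 probe were lower, in experiment 2 under both mimics. In a limma fit with experiment and mimic as terms, which was chosen after the values were seen, 3 of the 11 probes had an unadjusted p below 0.05, against 2615 of all tested probes (11.6%). None of the 11 and 0% of all tested probes passed after Benjamini-Hochberg adjustment. ALOX5 was higher in experiment 2 by 0.83 with miR-511 mimic and by 0.71 with control mimic (fit 0.77, SE 0.085, limma adjusted p = 0.388). LTC4S differed by -0.51 with miR-511 mimic and by -1.16 with control mimic (fit -0.84, SE 0.20, limma adjusted p = 0.406). The upstream PTGS1 probe differed by -0.34 and -0.50 (fit -0.42, SE 0.090, limma adjusted p = 0.401), and the downstream PTGS1 probe by -0.27 and 0.014, which did not pass. Without a filter on dim probes LTC4S missed the threshold. In fits without the mimic term, LTC4S missed it when the control array of experiment 1 was left out (-0.73), and PTGS1 when the miR-511 array of experiment 1 was (-0.42).

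Marker genes were set beside this difference, with no test. The linear intensities of each of 7 marker lists were summed per array. With 2 against 2 arrays in random order, the sums of a list separate between the experiments with a probability of 0.333. The share of all probes that separate in this way was not counted, so the number of lists that did is not read as a result. The list of eosinophil, basophil and mast cell markers, cells known for LTC4S, summed to 483 and 497 units in experiment 1 and to 862 and 925 units in experiment 2. The higher sum came from 1 probe, that of the granule protein gene PRG2, with log2 levels of 7.59 and 7.62 in experiment 1 and 9.33 and 9.24 in experiment 2, miR-511 mimic first. MS4A2, the other gene of the list well above background on all 4 arrays, had values below 0 for experiment 2 minus experiment 1 in both probes under both mimics (-0.17 to -0.042), as did CPA3 (-0.091 and -0.28), and CLC and TPSAB1 were well above background on none. The monocyte and myeloid list summed to 36249 and 37487 units in experiment 1 and to 33136 and 34816 units in experiment 2. Such a sum rests mostly on its brightest probes, and the genes did not all go the same way. CSF1R, CD68, ITGAM and SPI1 were lower in experiment 2 under both mimics. CD14 was higher, by 0.087 with miR-511 mimic and 0.34 with control mimic. CD33, MPO and some PTPRC probes differed in sign between the mimics. The part of these markers in the differences of ALOX5, LTC4S and PTGS1 was not tested.

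**Figure D5:**
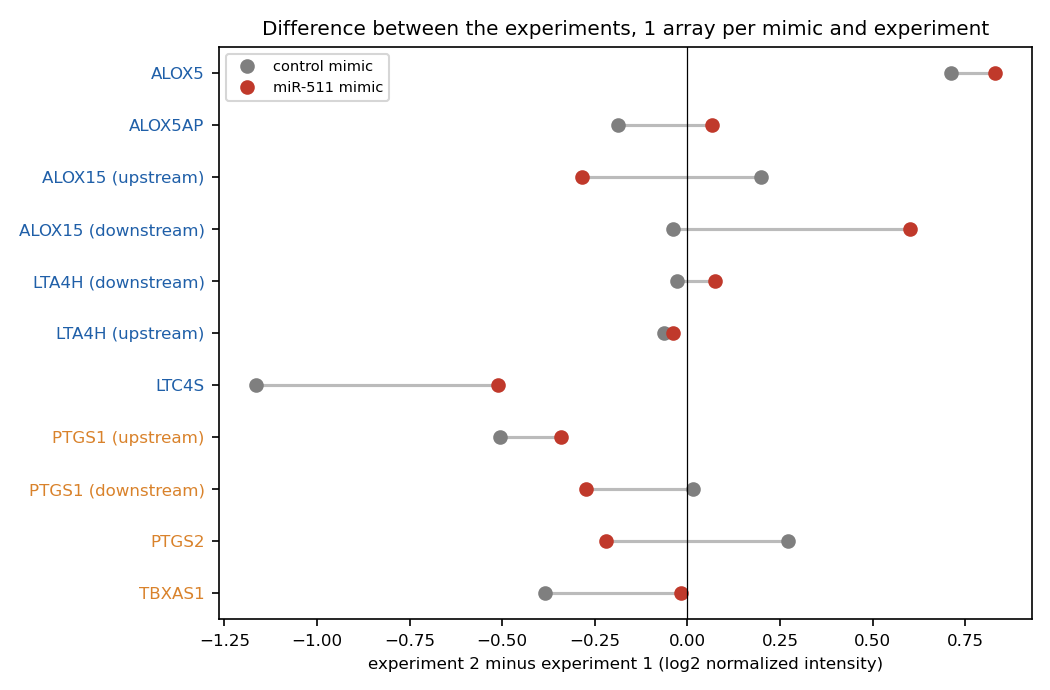
Difference between experiment 2 and experiment 1 (log2, horizontal axis) for each tested probe, with 1 point for control mimic (grey) and 1 for miR-511 mimic (red). ALOX5 lies at 0.71 and 0.83, LTC4S at -1.16 and -0.51, and both points of each LTA4H probe lie near 0.

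The other genes of the pathway were taken from a list of 50, of which 49 had probes and 34 were tested. None was higher and 1, ALOX12B, was lower with miR-511 mimic at the unadjusted threshold of limma, against 1.27% higher and 0.932% lower over all tested probes. The call of 1 of their 40 tested probes is close to the 2.20% called in either direction over all probes. The median difference over the 40 probes was 0.014. ALOX12B, a lipoxygenase known from the skin barrier (chr17:7978916-7978975, minus strand), had log2 levels of 4.22 and 4.55 in experiment 1 and 4.28 and 4.68 in experiment 2, miR-511 mimic first. Both miR-511 arrays were below both control arrays, and all 4 were well above background. The difference was -0.37 (SE 0.10, 95% interval -0.65 to -0.090, limma adjusted p = 1.00). It missed the threshold with normexp background correction (-0.069) and with an intensity trend. It also missed it without the miR-511 array of experiment 1 (-0.34), without that of experiment 2 (-0.40) or without the control array of experiment 2 (-0.30).

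By step of the pathway, the phospholipases A2, which release arachidonic acid, had 9 listed genes, of which 8 had probes. Of these 8, 4 were well above background on all 4 arrays. Of the other lipoxygenases 2 of 3 were. The other leukotriene enzymes, among them glutathione transferases, had 5 of 8, and the other prostanoid synthases had 6 of 8. Genes of degradation and transport had 4 of 6, prostanoid receptors 5 of 9, and leukotriene and related receptors 4 of 7. Over all probes of the array 21609 of 34127 were well above background on all 4 arrays, counted by probe and not by gene. In each class but the lipoxygenases 0 genes passed the unadjusted threshold.

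By root mean square distance of array-centred log2 levels over the 4 arrays, the probes most like that of LTC4S were those of ZC3H7B (0.014), TNNT1 (0.064) and KCNA7 (0.065), among 21608 candidates. Of these, 7 lay within 0.1. Over 4 arrays such likeness is a description only.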

How the data were processed

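Total RNA of THP1 cells was labelled with Cy3 and hybridized to 4 Agilent Human Whole Genome arrays (hg19 annotation). The authors deposited 1 scanner file per array with processed spot intensities, background-subtracted and not normalized between arrays, and a quantile-normalized table of log2 values that ranks the spots of each array as the intensities do (Spearman correlation 1). Feature Extraction is version 10.5.1.1 in the submitters' processing notes and 10.7.3.1 in the file headers.

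Groups and experiment numbers came from the sample labels. With R 4.3.3 and limma 3.58.1, control spots and 232 to 301 marked spots per array were dropped, log2 processed intensities were quantile normalized, and spots of a probe were averaged. A probe was tested if it had a value on all 4 arrays and, for at least 1 mimic, a signal well above background on both arrays (for probes printed 10 times, on more than 50% of spots). This gave 22638 of 34127 probes (66.3%). lmFit and eBayes (4.14 total degrees of freedom) gave two-sided p-values, with thresholds of 0.05 unadjusted, as in the study, and Benjamini-Hochberg adjusted. Precision is limited by 2 arrays per mimic. The functions were tested on simulated data. The experiment numbers pair the arrays, whose deviations from the mimic means correlated at 0.271 across probes. Gene symbols of all 13 probes matched RefSeq by accession. Exon numbers and UTR limits were not analysed here.

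The genes, lists and tests were chosen with earlier results of these data known. All probes of the 10 genes are named, other pathway genes only when called or when an alternative called them, and those most like the probe of largest range. Alternatives were 75th percentile scaling, normexp correction (offset 50), no or a stricter filter, the replicate block, the log2 table as deposited, the marked spots kept, eBayes with an intensity trend, an equal-variance comparison of each averaged probe without moderation, and leaving out each array. A block for slide or scan was not run, since all arrays lay on 1 slide. The study's further test over identical replicate probes was not run.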

Additional observations from a re-analysis of the deposited data

How the results depend on the processing

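Of the 2 called ALOX15 probes, 1 was called with 75th percentile scaling, with no filter on dim probes, with the filter for all 4 arrays, with marked spots kept, in the deposited table and with an intensity trend, in each case the upstream one, and 0 with normexp correction or the comparison without moderation. With the replicate block 1 was called (the upstream probe). Leaving out 1 array gave 0 to 2. After Benjamini-Hochberg adjustment of limma's p-values 0 of the tested probes passed in every alternative run. Of other pathway genes 1 was called, against 0 with normexp correction or an intensity trend, 2 with no filter (ALOX12B and DPEP1), 3 in the comparison without moderation (ALOX12B, PLA2G6 and PTGES3) and 1 to 2 without 1 array. Those were PTGDR without the miR-511 array of experiment 1, PLA2G5 and PLA2G6 without that of experiment 2, ALOX12B and FPR2 without the control array of experiment 1, and HPGD and PLA2G10 without that of experiment 2. Over all tested probes, 498 calls became 265 with normexp correction, 1029 with no filter, 894 with the replicate block, 285 with an intensity trend and 709 to 1440 without 1 array, the highest without the miR-511 array of experiment 2. The block changed no other call of the genes described.

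The median of the cyclooxygenase branch ran from -0.16 to 0.0060 without 1 array, and that of the lipoxygenase branch from -0.051 to 0.00028. The latter was also above 0 with normexp correction (0.0019), with no filter (0.022) and with the filter for all 4 arrays (0.032). Signs turned without 1 array for ALOX5 (-0.57 to 0.26), the downstream LTA4H probe (-0.073 to 0.00028, and 0.0019 with normexp correction), LTC4S (-0.48 to 0.69), the upstream PTGS1 probe (-0.16 to 0.35), PTGS2 (-0.21 to 0.065) and TBXAS1 (-0.27 to 0.12). The fits without 1 array had no term for the experiment. They therefore carried part of the difference between the experiments into that between the mimics. Within the experiments, ALOX5 (-0.22 and -0.098) and the upstream PTGS1 probe (0.014 and 0.18) kept their sign. The other probes named here did not. Other causes were not tested. For the experiments, 3 probes were called, and 2 to 3 without 1 array and without the mimic term. Without the control array of experiment 1, LTC4S was lost and the downstream ALOX15 probe gained (0.75). With 2 arrays per mimic, a difference that missed the threshold is not shown to be absent, and the values of ALOX12, PTGES and the downstream ALOX15 probe are limited by background.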
